A study of Mus musculus with 6 samples.

Results

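The genes of the nuclear pore, the nuclear lamina and nuclear transport were taken from the array by name: nucleoporins (Nup followed by a number, Nupl1, Nupl2, Tpr and Ranbp2), lamins and the lamin B receptor, the Ran cycle (Ran, Rcc1, Ranbp1), and the importins and exportins (Kpna, Kpnb, Ipo or Xpo followed by a number). The rule used no measured value and found 51 genes on 77 probes. Of these, 48 genes were bright enough to be tested, among 19213 tested genes and unnamed features in all. Kpna7, Nup210l and Nup62cl were left out because none of their probes was well above background on all 3 arrays of either group.

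All samples were G1E-ER-GATA-1 cells, mouse erythroid precursors without endogenous GATA-1, in which a fusion of GATA-1 with the estrogen receptor's ligand-binding domain lets estradiol start red cell maturation. One group of 3 samples received Foxo3 siRNA by electroporation at 0 h and 24 h, and the other 3 samples received nontargeting siRNA at the same times. Both groups received estradiol at 24 h and were harvested at 48 h, after 24 h of estradiol. RNA of each sample was read on 1 array in 1 colour (Cy3), and since the labels do not say whether replicates were separate cultures, p-values cover only the spread among these 6 samples.

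The nuclear pore is a ring-shaped channel through the nuclear envelope. Scaffold nucleoporins (the Y complex and the inner ring) hold it in the membrane, nucleoporins with phenylalanine-glycine repeats fill the channel, and filaments reach into the cytoplasm and, as a basket, into the nucleus. Importins carry cargo inward and exportins carry it outward, with the direction set by the GTPase Ran, and the lamins form the meshwork under the inner membrane. In maturing red cell precursors the nucleus shrinks and condenses before it is expelled.

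The check of the knockdown comes first. The probe on the Foxo3 RefSeq mRNA read −0.47, −1.29 and −1.89 with Foxo3 siRNA, against 1.20, 1.28 and 1.12 with nontargeting siRNA. These values, like all signals below, are scaled log2 signals, that is, log2 of the spot intensity minus the 75th percentile of that array. Foxo3 siRNA replicate 3 was the 1 array on which this probe was not above background, so its fold change of −2.42 on the log2 scale (SE 0.337, limma adjusted p = 0.00511) rests in part on a signal that dim, and a second Foxo3 probe, on a cDNA clone, gave 0.26 (SE 0.161, adjusted p = 0.242). Foxo3 siRNA replicate 3 stood apart from the other arrays in brightness: 20343 of its spots were well above background, against 30619 to 37532 on the other 5. All arrays lay on 1 slide, with Foxo3 siRNA replicate 1 and all nontargeting arrays in its row 1 and Foxo3 siRNA replicates 2 and 3 in row 2. Erythroblast markers were well above background on every array, 11 or 12 of 12 with Foxo3 siRNA and 12 of 12 with nontargeting siRNA.

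More of these genes were higher with Foxo3 siRNA than lower. At an adjusted p under 0.05 (limma, Benjamini-Hochberg over all tested features, here "called"), 17 of 48 genes were called higher and 1, Nup54, was called lower, and 30 were not called. Over all tested features 27.6% were called, 13.8% higher and 13.8% lower. The members' shares were 35.4% higher and 2.08% lower. In 28 of the 48 genes (58.3%) all Foxo3 siRNA arrays lay above all nontargeting arrays, against 23.0% of all tested features, and in 4 (8.33%) they lay below, against 28.0% of all tested features. The median log2 fold change, Foxo3 siRNA minus nontargeting siRNA, was 0.35 over the 48 genes and −0.15 over all tested features. This zero depends on the scaling: with each array scaled to its median instead, the 2 medians were 0.65 and 0.16, a shift that by construction leaves the gap of 0.49 between them as it is. With the slide row as a block that gap was 0.32, and it was 0.33 without a filter on dim probes. With median scaling 21 members were called higher and 1 lower, and 78.0% of all calls were higher, against 49.9% in the 75th percentile scaling used here.

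**Figure D1:**
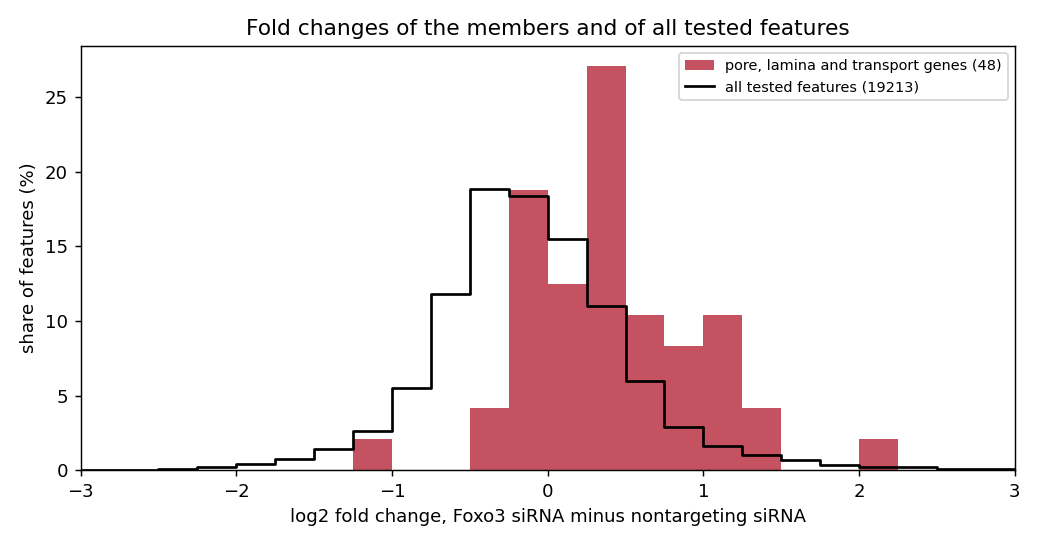
Share of features (vertical axis, %) by log2 fold change, Foxo3 siRNA minus nontargeting siRNA (horizontal axis, bins of 0.25, shown from −3 to 3), for the 48 pore, lamina and transport genes (bars) and all 19213 tested features (line). The bars are shifted to the right of the line, with a median of 0.35 against −0.15, and Lmnb1 is the bar furthest to the right at 2.06.

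The count of calls depended on single arrays and on the slide row. Without Foxo3 siRNA replicate 3 there were 11 members called higher, without Foxo3 siRNA replicate 2 there were 10, without nontargeting replicate 2 there were 10, and Nup54 was the 1 called lower each time. The share of all tested features called higher fell as well, from 13.8% to 8.38%, 8.03% and 6.5% in the same order. With the slide row as a block, 7 members were called higher (Nup205, Nup210, Nupl2, Lmnb1, Kpna2, Ipo5 and Xpo1) and 0 lower, against 1551 called features in all. Within row 1 Lmnb1 and Xpo1 were called, but there Foxo3 siRNA has a single array, which is assumed to vary like the 3 nontargeting arrays that give all of the spread. On the Foxo3 siRNA arrays 1, 2 and 3 the members called higher deviated from the nontargeting mean by a median of 0.66, 1.05 and 1.00 log2 units. Replicate 1 thus had the smallest deviation of the called members and also the highest remaining Foxo3 signal of its group. It is the only Foxo3 siRNA array in row 1, so slide row and extent of knockdown cannot be told apart here. All 18 called members kept their sign under every alternative setting.

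Lmnb1, which encodes lamin B1, had the largest fold change of all members. Its signal was 0.95, 1.19 and 0.95 with Foxo3 siRNA, against −1.00, −0.88 and −1.21 with nontargeting siRNA, and the groups were far apart. The log2 fold change was 2.06 (SE 0.134, 95% interval 1.74 to 2.38, limma adjusted p = 0.000647), a 4.17-fold higher level, on a probe printed at 10 spots of each array. It was called under all 17 alternative settings. The row block and row 1 alone give 1 and the same estimate (1.98), since row 2 holds no nontargeting array. The other lamina genes were not called. Lbr, the lamin B receptor, which ties heterochromatin to the inner nuclear membrane, read 4.67, 4.78 and 4.88 with Foxo3 siRNA, against 4.34, 4.55 and 4.49 with nontargeting siRNA. Its groups did not overlap, but the log2 fold change of 0.31 (SE 0.115, adjusted p = 0.0846) missed the threshold, and a second Lbr probe gave 0.07. Lmna, the gene of the A-type lamins, read 8.28, 8.19 and 8.30 with Foxo3 siRNA, against 8.09, 8.12 and 7.97 with nontargeting siRNA, a log2 fold change of 0.20 (95% interval −0.05 to 0.45, adjusted p = 0.18) with groups that did not overlap. Lmnb2, the gene of the other B-type lamin, read 0.32, 0.38 and 0.29 with Foxo3 siRNA, against 0.42, 0.36 and 0.53 with nontargeting siRNA. Its groups overlapped, and the log2 fold change was −0.10 (95% interval −0.35 to 0.14, adjusted p = 0.451), or 0.20 with median scaling.

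**Figure D2:**
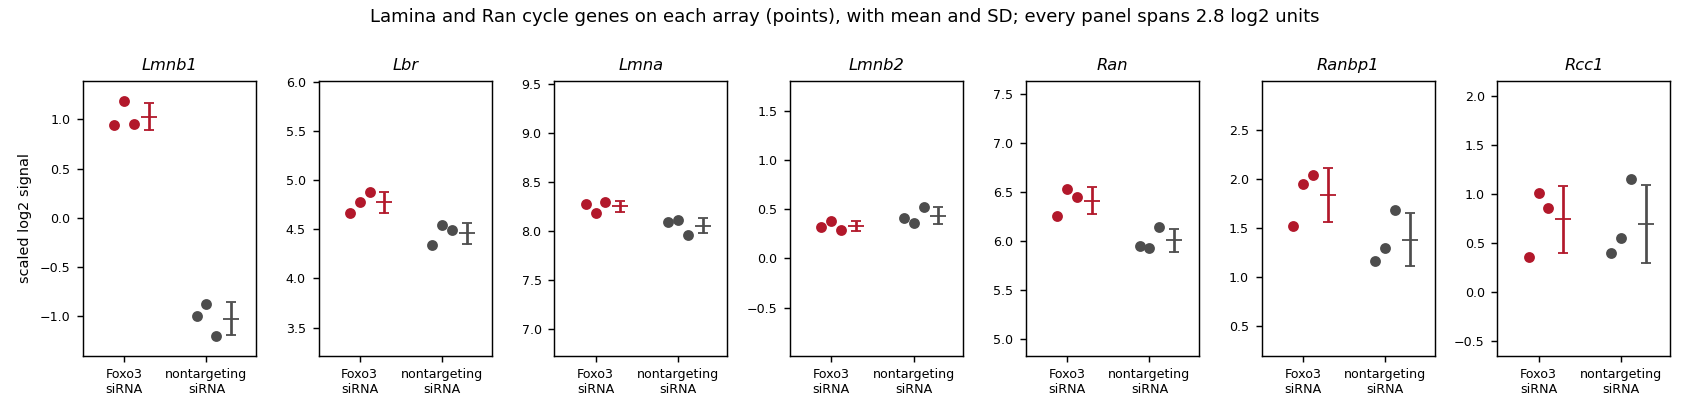
Scaled log2 signal (vertical axis) of the 4 lamina genes and the 3 Ran cycle genes on each array, Foxo3 siRNA on the left and nontargeting siRNA on the right of each panel, with mean and SD (n = 3). Panels span equal heights, so that the separation of Lmnb1 (1.03 ± 0.14 against −1.03 ± 0.16) can be set beside the much smaller one of Lmna (8.26 ± 0.06 against 8.06 ± 0.08).

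The Y complex is the scaffold of the outer rings that also starts pore assembly on chromatin after mitosis. Of its 6 tested genes with a Nup name, 4 were called higher and 0 lower, against 13.8% each way over all tested features. Subunits with other names, such as Sec13 and Seh1l, are given with the other pore and transport genes below. Nup85 read 2.52, 2.88 and 2.67 with Foxo3 siRNA, against 1.39, 1.45 and 1.85 with nontargeting siRNA, a log2 fold change of 1.13 (SE 0.167, limma adjusted p = 0.00572). Nup43 read −0.34, 0.21 and 0.13 with Foxo3 siRNA, against −1.07, −0.98 and −0.96 with nontargeting siRNA (log2 fold change 1.00, SE 0.166, adjusted p = 0.00808). In both genes the groups were far apart. Nup37 read 1.36, 1.76 and 1.61 with Foxo3 siRNA, against 0.65, 0.89 and 0.78 with nontargeting siRNA (log2 fold change 0.81, SE 0.141, adjusted p = 0.00967). Nup107 read 3.63, 3.97 and 3.70 with Foxo3 siRNA, against 3.03, 3.34 and 3.28 with nontargeting siRNA (log2 fold change 0.55, SE 0.145, adjusted p = 0.0346). The groups did not overlap in either gene, but Nup107 was no longer called in 5 of the 6 fits that leave out 1 array, with fold changes of 0.45 to 0.62. Nup160 (0.47, adjusted p = 0.0745) and Nup133 (0.27, adjusted p = 0.112) were not called, although their Foxo3 siRNA arrays too lay above all nontargeting arrays.

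The inner ring, the scaffold layer next to the membrane, had 4 of 5 genes called higher and 0 lower. The share over all tested features was 13.8% each way. Nup205, a large scaffold subunit, read 1.12, 1.45 and 1.24 with Foxo3 siRNA, against −0.11, 0.08 and 0.26 with nontargeting siRNA, a log2 fold change of 1.20 (SE 0.148, limma adjusted p = 0.00328). Nup155, a subunit that meets the membrane, read 0.95, 1.44 and 1.22 with Foxo3 siRNA, against 0.07, 0.52 and 0.57 with nontargeting siRNA (log2 fold change 0.82, SE 0.191, adjusted p = 0.025). The groups were apart in both, and Nup205 was also called with the row block (1.04, adjusted p = 0.0422). Nup93, a linker of the scaffold, read 2.02, 2.30 and 2.48 with Foxo3 siRNA, against 1.58, 1.57 and 1.94 with nontargeting siRNA (log2 fold change 0.57, SE 0.169, adjusted p = 0.0493). Nup35, a membrane-binding subunit, read 2.81, 3.32 and 3.19 with Foxo3 siRNA, against 2.42, 2.58 and 2.66 with nontargeting siRNA (log2 fold change 0.55, SE 0.162, adjusted p = 0.0479). Both sat just inside the threshold, and Nup155, Nup93 and Nup35 all lost their call without Foxo3 siRNA replicate 2, without Foxo3 siRNA replicate 3, without nontargeting replicate 1 or without nontargeting replicate 2. Nup188, the relative of Nup205, was not called at 0.40 (adjusted p = 0.0909), with groups that did not overlap.

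Of the 4 genes of the central channel with Nup98, 0 were called higher and 1 lower, against 13.8% each way over all tested features. Nup54, a repeat-bearing protein of the central channel, was the only member called lower: it read 2.39, 2.45 and 2.28 with Foxo3 siRNA, against 3.12, 3.46 and 3.66 with nontargeting siRNA. The log2 fold change was −1.04 (SE 0.159, 95% interval −1.42 to −0.66, limma adjusted p = 0.00628), a level 2.06-fold lower with Foxo3 siRNA, with no overlap between groups. Its second probe on the same RefSeq mRNA gave −1.05 (SE 0.185, adjusted p = 0.0103 over all kept probes). With the row block the value was −1.02 but the adjusted p was 0.0654. Its channel partners were not called: Nup62 gave −0.27 (adjusted p = 0.124) and Nupl1, the gene of the Nup58 protein, −0.15 (adjusted p = 0.386). With median scaling these values were 0.03 for Nup62 and 0.15 for Nupl1, while Nup54 stayed at −0.74. Nup98, a mobile repeat-bearing nucleoporin, gave 0.36 (adjusted p = 0.124) with overlapping groups.

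Nup210, a transmembrane nucleoporin, was called higher. It read 1.64, 1.95 and 1.83 with Foxo3 siRNA, against 0.89, 0.83 and 0.78 with nontargeting siRNA, a log2 fold change of 0.98 (SE 0.12, limma adjusted p = 0.00324). The groups did not overlap, but a second and dimmer Nup210 probe, above background on 2 of 3 Foxo3 siRNA arrays, gave 0.14 (SE 0.3, adjusted p = 0.734), and the mean of both probes was not called. On the cytoplasmic face 1 of 4 genes was called higher, against 13.8% of all tested features. This was Nupl2, a partner of the messenger RNA export factor Gle1, at 1.65, 1.79 and 1.81 with Foxo3 siRNA, against 0.68, 0.71 and 0.83 with nontargeting siRNA (log2 fold change 1.01, SE 0.107, adjusted p = 0.00213). Its groups were apart, while its other probes gave 0.43 and 0.76 and were not called. Nup88 and Nup214, which form a shared subcomplex of the filaments, gave 0.11 (adjusted p = 0.409) and −0.02 (adjusted p = 0.934). Ranbp2, the long filament protein that binds Ran, gave −0.24 (adjusted p = 0.251). All 3 had overlapping groups, and with median scaling Nup214 and Ranbp2 were at 0.29 and 0.07.

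No gene of the nuclear basket was called by limma, with 1 of the 3, Nup153, at an unadjusted p under 0.05. The share called over all tested features was 27.6%. Nup153, which anchors the basket, read lower with Foxo3 siRNA on every array, at a log2 fold change of −0.37 (SE 0.117, 95% interval −0.65 to −0.08, adjusted p = 0.0606). It passed the threshold with quantile normalization and when only probes above background on all 6 arrays were tested. Nup50, a Ran and importin binding protein of the basket, gave −0.12 (adjusted p = 0.348) and Tpr, its filament protein, −0.08 (adjusted p = 0.625). The sign of both turned with median scaling, to 0.18 for Nup50 and 0.22 for Tpr, while Nup153 was then at −0.06.

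**Figure D3:**
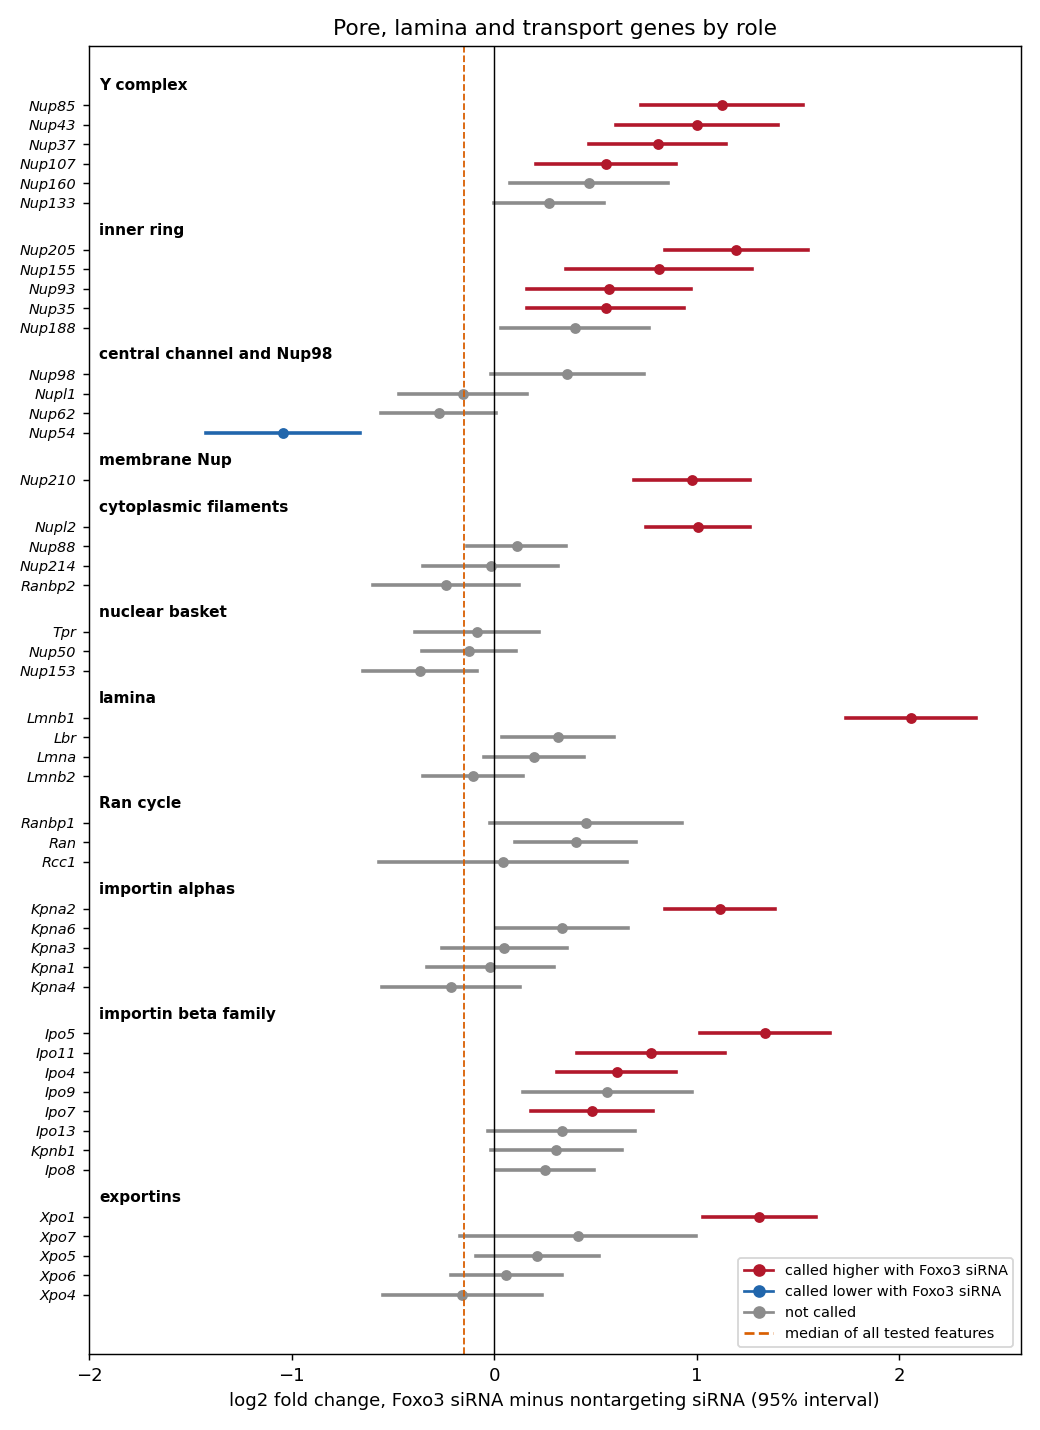
Log2 fold change, Foxo3 siRNA minus nontargeting siRNA (horizontal axis), with its 95% interval from limma for the 48 tested genes, grouped by role from top to bottom, and the median of all tested features (dashed line, −0.15). Genes called higher fill most of the Y complex and the inner ring, Nup54 lies alone on the left at −1.04, and the 3 basket genes lie between −0.37 and −0.08 (between −0.06 and 0.22 with median scaling).

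Of the 5 importin alphas, adaptors that bind the classical import signal, 1 was called, against 27.6% of all tested features. This was Kpna2. It read 5.97, 6.18 and 6.03 with Foxo3 siRNA, against 4.85, 4.96 and 5.02 with nontargeting siRNA, a log2 fold change of 1.12 (SE 0.113, 95% interval 0.85 to 1.39, limma adjusted p = 0.00185). The groups were far apart, and its 4 probes, 3 of which overlap a neighbour, gave 1.06 to 1.12. The remaining adaptors gave values from −0.21 to 0.34: Kpna6 0.34 (adjusted p = 0.104), Kpna3 0.05 (adjusted p = 0.777), Kpna1 −0.02 (adjusted p = 0.92) and Kpna4 −0.21 (adjusted p = 0.274). A second Kpna6 probe gave −0.43, also not called, so the sign for this gene depends on the probe. With median scaling Kpna1 and Kpna4 were at 0.29 and 0.09.

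Among the importin beta family, the carriers themselves, 4 of the 8 genes named Ipo or Kpnb were called higher and 0 lower. The share over all tested features was 13.8% each way. All 8 had their Foxo3 siRNA arrays above every nontargeting array, against 23.0% of all tested features. Carriers with other names are among the other pore and transport genes below, of which 7 were called higher and 5 lower, the importin Tnpo1 among the latter. Ipo5, a carrier of ribosomal proteins and histones, read 1.02, 1.20 and 1.26 with Foxo3 siRNA, against −0.36, −0.03 and −0.13 with nontargeting siRNA, a log2 fold change of 1.34 (SE 0.134, limma adjusted p = 0.00181). Its second probe gave 0.87 (adjusted p = 0.0422 over all kept probes), called as well. Ipo11, a carrier of some ubiquitin-conjugating enzymes, read 1.93, 2.21 and 1.98 with Foxo3 siRNA, against 1.01, 1.36 and 1.42 with nontargeting siRNA (log2 fold change 0.77, SE 0.152, adjusted p = 0.0144). Ipo4, which imports histones, read 1.93, 2.14 and 2.18 with Foxo3 siRNA, against 1.36, 1.50 and 1.58 with nontargeting siRNA (log2 fold change 0.61, SE 0.123, adjusted p = 0.0157). Ipo7, a carrier of ribosomal proteins and linker histone, was the fourth called gene at 0.48 (adjusted p = 0.0336). Ipo7 lost its call without any 1 of 5 arrays, nontargeting replicate 3 being the exception, and both Ipo4 and Ipo11 lost theirs without Foxo3 siRNA replicate 2 or without nontargeting replicate 2. Ipo4 was also lost without Foxo3 siRNA replicate 3. Kpnb1, importin beta itself, read 0.94, 1.00 and 1.11 with Foxo3 siRNA, against 0.49, 0.88 and 0.76 with nontargeting siRNA. Its log2 fold change of 0.31 (95% interval −0.01 to 0.63, adjusted p = 0.124) was not called. Ipo9 (0.56, adjusted p = 0.0553), Ipo13 (0.33, adjusted p = 0.135) and Ipo8 (0.25, adjusted p = 0.104) were not called either.

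Of the 5 exportins named Xpo with a number, 1 was called, against 27.6% of all tested features. This was Xpo1, the exporter of proteins with a leucine-rich export signal. It read 2.03, 2.33 and 2.21 with Foxo3 siRNA, against 0.89, 0.84 and 0.90 with nontargeting siRNA, a log2 fold change of 1.31 (SE 0.116, 95% interval 1.03 to 1.59, limma adjusted p = 0.00134). A second Xpo1 probe gave 1.31 (SE 0.275, adjusted p = 0.0186), and the gene was called under all 17 alternative settings, with a value of 1.15 with the row block and in row 1 alone. Xpo7, an exportin known in mouse erythroblasts for its part in nuclear condensation, read 0.24, 0.30 and −0.51 with Foxo3 siRNA, against −0.49, −0.17 and −0.56 with nontargeting siRNA. Its groups overlapped through Foxo3 siRNA replicate 3, and neither the log2 fold change of 0.42 (95% interval −0.17 to 1.00, adjusted p = 0.22) nor that of a second probe (−0.17) was called. Without Foxo3 siRNA replicate 3 the value was 0.68, still not called. Xpo5, the exporter of microRNA precursors, gave 0.21 (adjusted p = 0.227), Xpo6, the exporter of actin, 0.06 (adjusted p = 0.687), and Xpo4 −0.16 (adjusted p = 0.474), or 0.15 with median scaling.

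In the Ran cycle no gene was called by limma, with 1 of 3, Ran, at an unadjusted p under 0.05. The share called over all tested features was 27.6%. Ran read 6.26, 6.53 and 6.45 with Foxo3 siRNA, against 5.95, 5.93 and 6.14 with nontargeting siRNA. Its groups did not overlap, and the log2 fold change of 0.40 (SE 0.124, 95% interval 0.11 to 0.70, adjusted p = 0.0539) just missed the threshold, whereas a second and dimmer Ran probe gave 0.89 (SE 0.165, adjusted p = 0.0124) and was called. Ranbp1, which helps RanGAP to act on Ran, read 1.52, 1.94 and 2.03 with Foxo3 siRNA, against 1.16, 1.30 and 1.68 with nontargeting siRNA (log2 fold change 0.45, adjusted p = 0.125). Rcc1, the nucleotide exchange factor that loads Ran with GTP on chromatin, read 0.35, 1.01 and 0.86 with Foxo3 siRNA, against 0.40, 0.55 and 1.15 with nontargeting siRNA (log2 fold change 0.04, 95% interval −0.57 to 0.65, adjusted p = 0.904). Both had overlapping groups.

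**Figure D4:**
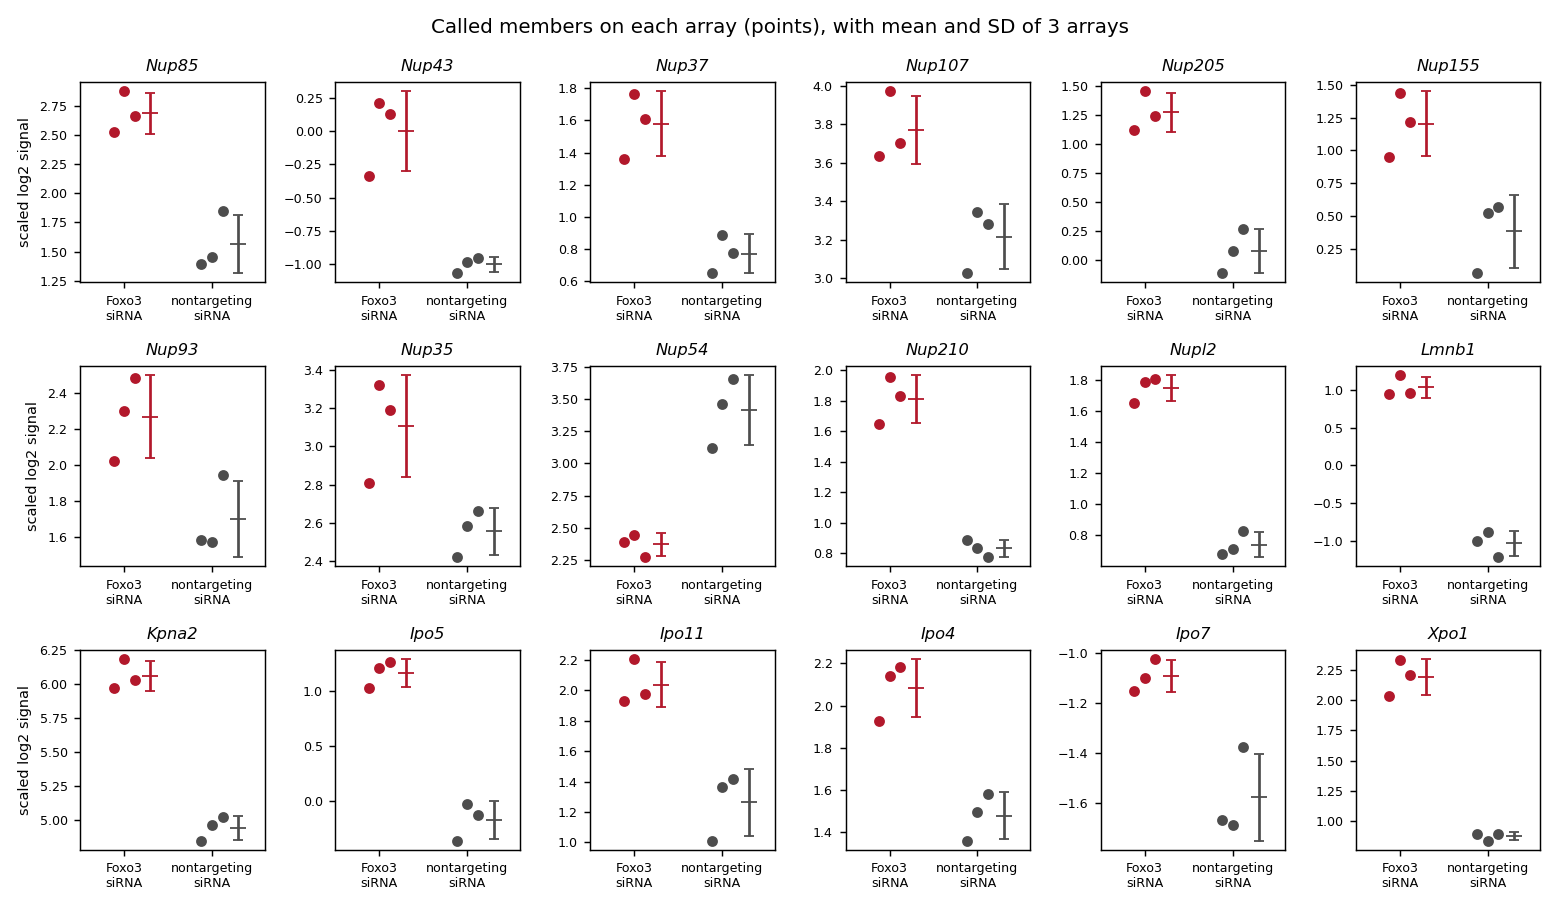
Scaled log2 signal (vertical axis, a range of its own in each panel) of the 18 called genes on each array, Foxo3 siRNA on the left and nontargeting siRNA on the right, with mean and SD (n = 3). In all 18 the groups do not overlap: 17 lie higher with Foxo3 siRNA and Nup54 lower.

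Probes of a gene were compared where more than 1 was bright enough, which was the case in 16 genes. In 4 of these (Xpo1, Kpna2, Ipo5 and Nup54) all probes were called the same way, in 4 (Nupl2, Nup210, Nup35 and Ran) some were called and some were not, and in 8 none was. No gene had probes called in both directions, while 3 genes (Xpo7, Kpna6 and Kpna3) had probes of both signs, none of them called. Adjusted over the 26991 kept probes rather than over genes, the brightest probe of Nup35 was no longer called (adjusted p = 0.0516) but its second probe was (0.52, adjusted p = 0.0241).

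**Figure D5:**
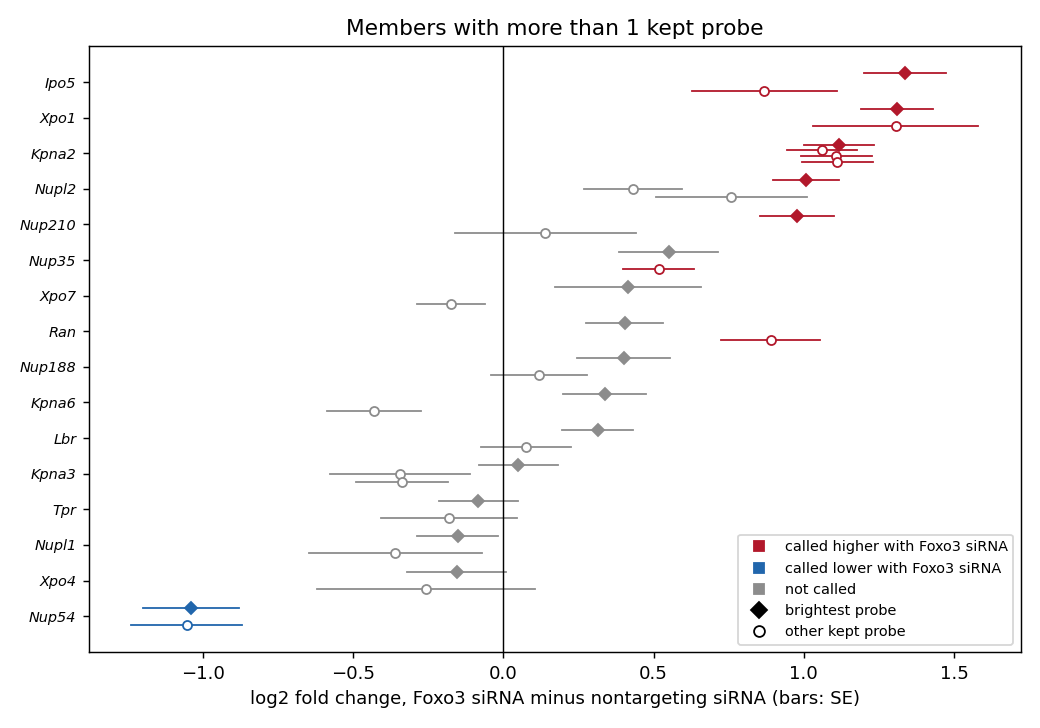
Log2 fold change, Foxo3 siRNA minus nontargeting siRNA (horizontal axis, bars show 1 SE), of each kept probe of the 16 genes with more than 1, with calls adjusted over all kept probes. The probes of Xpo1, Kpna2 and Nup54 lie on top of each other, whereas those of Nup210, Nupl2, Kpna6 and Xpo7 lie apart.

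In the authors' deposited table, which gives a limma fold change and adjusted p-value per spot, the same 3 against 3 samples gave fewer calls. Of the 48 chosen probes, those of Lmnb1 (1.88, mean of 10 spots), Xpo1 (1.26), Ipo5 (1.26), Kpna2 (1.18) and Nup210 (0.96) were marked higher and that of Nup54 (−1.06) lower in the authors' deposited table. Over all non-control spots 1349 were marked there, 880 higher and 469 lower, together 2.27% of 59305. These spots include dim ones, whereas the 48 probes were chosen for brightness, so this share is not a like background for them.

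The promoters of the members were then read from RefSeq (GRCm38.p6), as windows of 250 bases before and 50 after each transcription start. Windows were found for 39 of the 48 genes, 46 windows in all, but not for Nup85, Nup43, Nup35, Lmnb1, Kpna6, Kpna3, Kpna1, Xpo7 and Xpo4. The E2F motif (searched as TTTCGCG, then also as TTTGGCG and lastly as TTTCCCG, on both strands as for all motifs here) was found in 7 of the 46 windows (15.2%), against 5.6% of all 32851 windows of the table. It was present at Ipo7, Kpna2, Nup210, Nup93, Nup98, Ranbp1 and Ranbp2. The CCAAT box (CCAAT) was found in 24 windows (52.2%), against 37.4% of all windows, and the cell cycle homology region (TTTGAA) in 10 (21.7%), against 17.9%. The NRF1 motif (GCATGCG) was found in 8 windows (17.4%, all windows 3.6%), among them those of Ran, Ranbp1, Rcc1 and Nup107, where 2 matches on opposite strands overlap. The GATA motif (AGATAA) was found in 2 (4.3%, all windows 11.2%), those of Ipo5 and Lbr, and the FOXO motif (GTAAACA) in 0 (all windows 3.6%). These are letter matches only, and binding was not measured.

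Below, as examples, are the bases up to the transcription start of 3 genes called higher that hold a CCAAT box there and of Nup54, the gene called lower, which holds none in these bases. The CCAAT box was in 10 of 16 windows of genes called higher (62.5%) and in 14 of 29 windows of genes not called (48.3%). In the same order the shares were 25.0% and 10.3% for the E2F motif and 31.2% and 17.2% for TTTGAA. For the NRF1 motif they ran the other way, at 6.2% (1 of 16) and 24.1% (7 of 29). Nup54 has 1 window, and a link of the box or of the other motifs to the direction of change was not tested. Capitals mark matches of TTTGAA on either strand and of the CCAAT box. Kpna2 is shown at chr11:106999526-106999675, minus strand, with a TTTGAA match on the opposite strand that begins at −35 and a CCAAT box at −25. Nup37 is shown at chr10:88146842-88146991, plus strand, with TTTGAA matches at −69 and −47 and a CCAAT box at −20. Xpo1 is shown at chr11:23255791-23256040, plus strand, with CCAAT boxes at −183 and −140, and Nup54 at chr5:92435200-92435349, minus strand. All coordinates are on GRCm38.p6.
Kpna2: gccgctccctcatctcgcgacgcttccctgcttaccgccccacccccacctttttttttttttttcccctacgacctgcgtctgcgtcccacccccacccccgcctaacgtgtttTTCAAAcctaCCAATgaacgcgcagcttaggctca
Nup37: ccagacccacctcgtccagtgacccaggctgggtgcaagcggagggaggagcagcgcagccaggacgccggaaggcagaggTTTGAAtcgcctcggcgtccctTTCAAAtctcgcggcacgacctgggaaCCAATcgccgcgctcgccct
Xpo1: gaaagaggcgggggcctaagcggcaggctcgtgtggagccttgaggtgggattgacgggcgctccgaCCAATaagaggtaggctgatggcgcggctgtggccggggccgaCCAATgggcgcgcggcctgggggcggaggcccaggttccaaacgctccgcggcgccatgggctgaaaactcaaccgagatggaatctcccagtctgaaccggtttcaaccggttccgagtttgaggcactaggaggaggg
Nup54: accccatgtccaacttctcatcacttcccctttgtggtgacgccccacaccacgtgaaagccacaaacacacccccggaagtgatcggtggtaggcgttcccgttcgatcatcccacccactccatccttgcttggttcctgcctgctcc

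Genes of the same structures outside the naming rule were called in shares nearer to the background. Of 30 tested other pore and transport genes, 7 were called higher (23.3%) and 5 lower (16.7%), against 13.8% each way over all tested features, with a median log2 fold change of 0.12, against the −0.15 of all tested features. The 4 with the smallest adjusted p were higher: Sec13 (0.73) and Seh1l (0.81), both Y complex subunits, Ddx19b (0.97), a helicase of messenger RNA export, and Eny2 (0.50), a subunit of an export complex at the basket. The 5 called lower, named after their values were seen, were Xpot (−0.70), the transfer RNA exporter, the importin Tnpo1 (−0.56), Ranbp10 (−0.48), Rae1 (−0.37) and Ranbp3 (−0.36). Of 24 tested other nuclear envelope genes, 6 were called higher (25.0%) and 3 lower (12.5%), also against 13.8% each way, with a median of −0.03. The lipin gene Lpin1, whose product makes diacylglycerol and acts on lamina disassembly, gave −1.33 (SE 0.133, limma adjusted p = 0.00181). Tmpo, which encodes lamina-associated polypeptides that bind B-type lamins, gave 1.10 (SE 0.118, adjusted p = 0.00216). Sun2, which links the lamina to the cytoskeleton, gave −0.92 (SE 0.103, adjusted p = 0.00239), and Tmem43, an inner membrane protein, −0.96 (SE 0.129, adjusted p = 0.00408).

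Markers of mitosis were higher with Foxo3 siRNA. All 18 tested of 20 mitosis markers were called higher, with a median log2 fold change of 2.48 and the smallest adjusted p in Bub1 (3.86), Aurka (2.64), Birc5 (3.19) and Plk1 (2.50). The mean scaled log2 signal of all 20, tested or not, was 2.15 to 2.35 on the Foxo3 siRNA arrays and −0.15 to 0.01 on the nontargeting arrays, with Aurkb above background on none. Of 12 erythroblast markers Rhag (1.41) and Tfrc (0.61) were called higher and Alas2 (−0.40) lower. The summed relative signal of the 12, which rests mostly on the brightest markers, was 3857 to 5180 with Foxo3 siRNA and 5537 to 6059 with nontargeting siRNA. Their mean scaled log2 signal was not lower, at 5.97 to 6.16 with Foxo3 siRNA and 5.91 to 6.03 with nontargeting siRNA. Of 6 tested of 8 megakaryocyte markers, Itga2b (1.27), Gp1ba (0.59) and Gp6 (1.42) were called higher, with a summed signal of 38.5 to 69 with Foxo3 siRNA and 38.3 to 58.2 with nontargeting siRNA and Ppbp above background on no array. None of the 5 tested macrophage and granulocyte markers was called by limma (2 at an unadjusted p under 0.05), nor any of the 3 tested lymphocyte markers (1). Mpo, Ly6g, Lyz2 and Ctss of the macrophage and granulocyte list and Cd8a and Ms4a1 of the lymphocyte list were above background on no array. Summed signals were 66.7 to 73.2 with Foxo3 siRNA and 72.6 to 116 with nontargeting siRNA for the macrophage and granulocyte list, and 14.7 to 16.9 with Foxo3 siRNA and 15.4 to 23 with nontargeting siRNA for the lymphocyte list. In bulk RNA fewer cells of a type and less RNA per cell cannot be told apart, and the part of these markers in the members' values was not tested.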

How the data were processed

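The members and gene lists were chosen with earlier results of these data known. The deposited scanner files hold spot intensity, background-subtracted and detrended within each array with Agilent Feature Extraction 10.7.3.1 per the file headers, on an array design placed on mouse build mm9; no normalization between arrays is recorded. The deposited series table repeats these intensity values (largest difference 0) beside a log2 fold change of the authors and a p-value for every spot, raw and adjusted, made with limma per the submitters' processing notes, with a normalization not given in the sources used here. Base 2 of that log2 fold change was read from the signals (slope 0.946 over 19470 bright spots).

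The log2 intensity was scaled to the 75th percentile of the non-control spots of each array. Control spots and outlier flags were left out, and spots of a probe were averaged (55681 probes). A probe was kept if every array of either group showed it well above background (26991 probes), and the brightest stood for its gene. Groups were compared with limma 3.58.1 in R 4.3.3 (lmFit and eBayes, two-sided, no covariates). P-values of genes were adjusted by Benjamini-Hochberg over 19213 features, and those of single further probes over all kept probes. Tested on data simulated from these arrays (19111 features), the fit called 0 of 67 features changed by 0.5 on the log2 scale, 29 of 67 changed by 1, 58 of 66 changed by 2 and 3 of 18911 unchanged ones. Far fewer features were changed in the simulation than the 27.6% called in the data. The adjustment was therefore stricter there, and these shares do not give the power of the fit in the real data. No saturated spot was found, and the 3 arrays per group limit the precision. Names are those of the array, matched to RefSeq by accession, symbol or synonym. Values on each array are given for called members with an absolute log2 fold change of at least 0.5 and for a set of genes whether called or not (Lmna, Lmnb1, Lmnb2, Lbr, Ran, Rcc1, Ranbp1, Xpo1, Xpo7, Kpna2 and Kpnb1), and of each other list up to 4 genes with the smallest adjusted p are named. Alternatives were other scalings, background correction, filters, probe choices, blocks, single arrays left out and the authors' table. Probe sequences are not shown, because the RefSeq proteins against which they were to be checked were not used here.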

Additional observations from a re-analysis of the deposited data

How the results depend on the processing

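The 17 members called higher (13.8% of all tested features) were 15 with quantile normalization (13.8%), 21 with median scaling (16.5%) and 19 with normexp (15.1%). They were 20 of 46 tested when probes had to be above background on all 6 arrays (23.0%). Without a filter they were 7 of 51 tested (2.28%), and with the slide row as a block 7 (5.05%). In the authors' deposited table they were 5. Leaving out 1 array gave 10 to 19 (6.5% to 11.7%). Percentages give the share of all tested features called higher in the same setting, which changed as well. Row 1 alone, given below, holds fewer arrays, and the cause of the other changes was not tested. The 1 member called lower became 2 with quantile normalization, with the 6-array filter and with each probe tested on its own (Nup54 by both probes), and 0 without a filter, with the row block and in row 1 alone. The members' median of 0.35 was 0.65 with median scaling and 0.23 with the row block or in row 1 alone, and 0.31 to 0.40 when 1 array was left out. The 5299 called features were 1175 without a filter, 1551 with the row block, 600 in row 1 alone and 2172 to 4551 when 1 array was left out. Correlations of deviations were 0.183, −0.332 and 0.126 for same-numbered samples and −0.398 to 0.321 for differently numbered ones. With 3 arrays per group these values cannot decide whether the replicate numbers pair the samples. The replicate block gave 19 members called higher, 1 lower and 5486 called features. Signs turned in 36 values, all of members not called in the main setting. With quantile normalization Nup214 was 0.0655, Kpna3 −0.0057 and Xpo6 −0.00536. With median scaling, whose zero lies elsewhere, Nupl1 was 0.15, Nup62 0.0319, Nup214 0.29, Ranbp2 0.0672, Tpr 0.22, Nup50 0.18, Lmnb2 0.20, Kpna1 0.29, Kpna4 0.0923 and Xpo4 0.15. With probes averaged Kpna6 was −0.0472 and Kpna3 −0.21. With the row block or in row 1 alone Nup214 was 0.0783, Rcc1 −0.35, Kpna3 −0.0168 and Xpo6 −0.0781. With 1 array left out Kpna1 was −0.11 to 0.0583, Rcc1 −0.11 to 0.27, Kpna3 −0.0397 to 0.11, Nup214 −0.13 to 0.0731 and Tpr −0.16 to 0.0194, and Rcc1 was −0.0445 in the authors' deposited table. Except for the scaling, the cause of these turns was not tested. Signal over background limits Nupl1 and Nup214, which were dim on 1 of 3 Foxo3 siRNA arrays.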
